A study of Homo sapiens with 8 samples.

Results

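The 41 genes described here carry out glycolysis or belong to the transcriptional response to low oxygen, and they were followed in 2 human lung cancer cell lines grown flat or on a scaffold. They were chosen by name: oxygen sensors and histone demethylases, proteins that admit glucose and set its flux, 11 glycolytic enzymes, carbonic anhydrases, secreted factors, mitophagy receptors, collagen-modifying enzymes and further known targets of the hypoxia-inducible factors (HIF). Each gene was read from a probe set annotated to 1 gene symbol, taking the probe set with the highest mean over the 8 arrays. Of the 41 genes, 39 had such a probe set, the 11 glycolytic enzymes and 28 others. All 39 stood above the array median on at least 2 arrays and were tested, among 11926 tested of 18244 genes measured. The carbonic anhydrase CA9 had no listed probe set, and the glucose transporter SLC2A3 had only probe sets shared with its close copy SLC2A14, so neither is described.

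In well-oxygenated cells, prolyl hydroxylases such as EGLN1 and EGLN3 mark the HIF alpha subunits for degradation through the ubiquitin ligase subunit VHL. When oxygen falls, the alpha subunits accumulate, pair with ARNT and bind short DNA elements near genes for glucose uptake, glycolysis, blood vessel growth, collagen processing and the removal of mitochondria. Growth factor signalling through EGFR is also known to raise glycolytic gene expression in tumour cells, by way of AKT, mTOR and MYC.

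RNA was measured on 8 oligonucleotide arrays, 1 for each combination of line, culture and treatment, so no condition had a replicate. A549 is a lung adenocarcinoma line without an activating EGFR mutation, and HCC827 is one with such a mutation. In 3D, 100000 cells were seeded on a scaffold of collagen and grown for 14 days, and in 2D, 200000 cells were grown for 7 days in dishes of 21 cm². Gefitinib, which blocks the kinase of EGFR, was given at 1 µM to treated cultures, and control cultures received none. Scaffold cultures were exposed from day 11, for 3 days. The protocol also names day 4 as a start, in a phrase that says 3D again. Here it was taken to mean the dishes. The 3D samples were lysed with beads and extracted with another column kit than the 2D samples, so culture and RNA preparation cannot be told apart in any value below. The labels name no cells other than the line's own.

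Values are log2 signals, and array medians lay between 7.27 and 7.34. All 5 epithelial markers (EPCAM, KRT8, KRT18, KRT19 and CDH1) stood above the array median in both lines and cultures, whereas of 7 fibroblast markers 0 did so in A549 and 1 in each culture of HCC827. These were COL1A1 in 3D, where no marker of the list was above 7.54, and LUM in 2D, at 9.93 in the array labelled control and 8.47 in the one labelled gefitinib. LUM was at 6.28 and 7.37 in HCC827 3D, and its part in the HCC827 differences was not tested. Of 4 endothelial markers 0 to 2 did so (PECAM1 and KDR in HCC827 3D), and of 4 leukocyte markers 0 to 2 (CD14 and LYZ in A549 3D), with a highest signal over both lists of 8.30. The lung lineage markers NKX2-1 and SFTA2 were not above the median in A549. RNA integrity differed with culture: the signal of the 3' minus the 5' actin control probe set was 1.67 and 1.74 in A549 3D, 2.34 and 2.64 in HCC827 3D, and between -0.14 and -0.05 in 2D. Its part in the culture differences was not tested. In the HCC827 2D pair the data went against the labels. Of 15 genes induced by ERK signalling downstream of EGFR, 14 were lower with gefitinib in HCC827 3D (median log2 -1.31), but 14 were higher in the HCC827 2D array labelled gefitinib (median 1.21). The ERK phosphatase DUSP6 stood at 11.48 (control) and 8.16 (gefitinib) in HCC827 3D, and at 6.57 and 10.21 on the 2D arrays with those labels. HCC827 2D arrays are therefore called by their labels. The mean 3D minus 2D difference of HCC827 does not depend on which 2D array was treated, but its spread does. The labels also enter the errors of every fit in which 1 treatment term covers all HCC827 arrays. The other fits that hold the HCC827 2D arrays take their error from A549.

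HIF dimers bind elements with the core ACGTG or GCGTG. The 250 bases before the RefSeq start site (GRCh38.p14) were searched for both words on both strands, with a palindromic CACGTG counted on each strand. A window was available for 37 of the 41 members. In the first window of each gene, 29 of 37 members (78.4%) held at least 1 match, 8 of 11 glycolytic enzymes (72.7%) and 21 of 26 others (80.8%). The same held for 56.8% of 9807 genes tested on the arrays and for 43.2% of all 35116 windows. A match is a description of these letters and not a measured site. Sequences are shown for 5 members that mark the patterns below: ANGPTL4 and ALDOC had the largest culture differences in A549, LDHA and DDIT4 fell strongly with gefitinib in HCC827 3D, and WSB1 rose with culture in both lines without a fall under gefitinib. Capitals mark the matches, read 5′ to 3′ on the gene's strand.
ANGPTL4, chr19:8363905-8364154, plus strand: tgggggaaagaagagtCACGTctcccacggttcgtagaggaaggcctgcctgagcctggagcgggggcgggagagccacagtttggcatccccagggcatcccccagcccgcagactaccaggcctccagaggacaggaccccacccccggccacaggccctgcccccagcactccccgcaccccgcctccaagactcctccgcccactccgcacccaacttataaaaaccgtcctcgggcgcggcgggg
ALDOC, chr17:28576896-28577145, minus strand: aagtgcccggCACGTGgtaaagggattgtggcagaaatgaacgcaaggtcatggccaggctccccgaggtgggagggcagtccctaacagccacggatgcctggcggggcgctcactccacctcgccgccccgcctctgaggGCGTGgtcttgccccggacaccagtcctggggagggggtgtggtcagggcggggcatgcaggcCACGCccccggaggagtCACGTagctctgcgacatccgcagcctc
LDHA, chr11:18394313-18394562, plus strand: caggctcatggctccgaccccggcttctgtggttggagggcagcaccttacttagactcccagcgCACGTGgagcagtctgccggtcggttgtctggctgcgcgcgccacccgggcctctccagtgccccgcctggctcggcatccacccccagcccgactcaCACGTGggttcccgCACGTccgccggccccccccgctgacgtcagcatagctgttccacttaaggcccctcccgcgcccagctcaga
DDIT4, chr10:72273674-72273923, plus strand: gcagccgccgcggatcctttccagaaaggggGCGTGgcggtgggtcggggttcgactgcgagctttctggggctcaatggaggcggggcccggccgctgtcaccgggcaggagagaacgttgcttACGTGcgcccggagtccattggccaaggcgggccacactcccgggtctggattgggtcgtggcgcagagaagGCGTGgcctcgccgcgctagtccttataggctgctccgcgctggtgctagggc
WSB1, chr17:27293864-27294113, plus strand: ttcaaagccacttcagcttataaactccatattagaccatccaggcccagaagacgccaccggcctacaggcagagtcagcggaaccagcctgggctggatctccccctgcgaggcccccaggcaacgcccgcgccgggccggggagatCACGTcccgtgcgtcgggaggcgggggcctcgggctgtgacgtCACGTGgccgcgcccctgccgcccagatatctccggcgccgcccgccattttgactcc
These windows held 1 match (ANGPTL4), 5 (ALDOC), 5 (LDHA), 3 (DDIT4) and 3 (WSB1), so the gene with the largest culture difference had the fewest of the 5. Among members with no match in the first window were SLC2A1, PDK1, P4HA2 and EGLN3. The second window of PDK1, before another start site, held 2 matches.

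The first comparison asked what 3D culture changed in A549. The secreted factors ANGPTL4, ADM and STC2, both histone demethylases, MXI1, P4HA2, CA12 and WSB1 rose in 3D, and of the 11 glycolytic enzymes ALDOC did. Of the 39 members, 36 were higher on both 3D arrays than on both 2D arrays, including all 11 glycolytic enzymes, an order found for 51.5% of all genes tested. The members' median 3D minus 2D difference was log2 1.21, against 0.13 for all genes. With the mean of all probe sets of a gene it was 0.73, against 0.03. By limma with Benjamini-Hochberg adjustment over all genes, 10 members rose and 0 fell, where 22.3% of all genes passed (16.3% higher, 6.01% lower). In bulk RNA, a larger share of cells with a transcript and more of it per cell cannot be told apart.

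The largest difference was that of a secreted factor. ANGPTL4, an inhibitor of lipoprotein lipase, stood at 12.08 (control) and 11.31 (gefitinib) on the 3D arrays and at 7.56 and 7.62 on those of 2D. It rose by log2 4.10 ± 0.94 (SE), or 17.2-fold (adjusted p = 0.0468, limma). Both 3D arrays lay far above both 2D arrays, yet the call sat at the threshold and was lost with a robust variance prior (adjusted p = 0.0509). The vasodilator peptide ADM was at 11.90 and 11.72 in 3D and at 9.84 and 10.52 in 2D, a rise of 1.63 ± 0.37 (0.0452) that was not kept with the mean of its probe sets (1.38, 0.0601). STC2, a secreted glycoprotein, was at 8.91 and 8.47 against 7.34 and 7.09, a rise of 1.47 ± 0.23 (0.0250). VEGFA, the main angiogenic growth factor, did not pass in this fit, with 11.48 and 11.25 in 3D, 9.01 and 9.25 in 2D and a difference of 2.23 ± 0.56 (0.0565).

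Oxygen sensing and chromatin genes split. The histone demethylases KDM3A (10.70 and 10.83 in 3D, 8.96 and 9.13 in 2D) and KDM4B (8.54 and 8.34 in 3D, 7.08 and 7.08 in 2D) rose by 1.72 ± 0.16 and 1.36 ± 0.11, both with adjusted p = 0.0177. With the mean of all probe sets these rises were 1.32 and 0.72. The prolyl hydroxylase EGLN3 had a larger difference but a wider error, at 10.42 and 10.14 in 3D and 7.74 and 7.52 in 2D (2.65 ± 0.80, adjusted p = 0.0825, limma). Its relative EGLN1, at 10.66 and 10.72 in 3D and 11.02 and 11.13 in 2D, was the only member lower on both 3D arrays than on both 2D arrays, as 28.2% of all genes were (-0.38 ± 0.37, adjusted p = 0.485).

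Among growth-restraining genes, the MYC antagonist MXI1 was at 10.85 and 10.95 in 3D and at 9.18 and 9.09 in 2D, and rose by 1.76 ± 0.18 (adjusted p = 0.0178, limma). With the mean of its 5 probe sets the rise of MXI1 was 0.55. NDRG1, a stress-induced gene linked to differentiation, was at 12.98 and 12.88 in 3D and 9.95 and 9.92 in 2D. Its 7.98-fold difference (3.00 ± 0.99) did not pass (adjusted p = 0.0973), and neither did that of DDIT4, an inhibitor of mTOR complex signalling (0.79 ± 1.22, 0.670). The A549 arrays of NDRG1 were closely paired, and its standard error of 0.99 in the 8-array fit was 0.09 with the A549 arrays alone.

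Collagen and matrix genes were higher in 3D apart from LOX, a lysyl oxidase that crosslinks collagen and lay between 7.36 and 7.51 on all 8 arrays. The collagen prolyl hydroxylase subunit P4HA2 rose by 1.31 ± 0.28 (adjusted p = 0.0402, limma), from 9.93 and 9.88 in 2D to 11.32 and 11.12 in 3D. P4HA1, the other catalytic subunit (2.04 ± 0.85, 0.153), and PLOD2, which hydroxylates collagen lysines (1.53 ± 0.45, 0.0791), were above 0 without passing. The carbonic anhydrase CA12, which helps to handle acid outside the cell, was at 14.38 and 14.16 in 3D and 13.20 and 13.37 in 2D, a rise of 0.98 ± 0.22 (0.0447). The CA12 call was lost when all its probe sets were averaged (0.57, adjusted p = 0.0551, limma) and with no filter on low signals (0.0526). WSB1, a ubiquitin ligase subunit, was at 12.94 and 12.72 against 10.77 and 10.50, a rise of 2.19 ± 0.12 (0.0177). With the mean of its 7 probe sets the rise of WSB1 was 1.44. The mitophagy receptors BNIP3 (0.60 ± 0.75, 0.594) and BNIP3L (1.14 ± 0.36, 0.0876) did not pass.

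Of the glucose entry and flux genes 0 of 4 passed in A549, with a median of 1.58. PFKFB4, a kinase that makes the activator of phosphofructokinase, stood at 10.28 and 9.78 in 3D and at 7.50 and 7.37 in 2D (2.60 ± 0.88, adjusted p = 0.104, limma). PDK1, which inhibits pyruvate dehydrogenase and so keeps pyruvate out of mitochondria, was at 9.17 and 8.99 against 7.22 and 7.24 (1.85 ± 0.87, 0.194). The glucose transporter SLC2A1 (1.32 ± 0.63, 0.197) and PFKFB3 (0.91 ± 0.63, 0.339) differed by less. The direction of PFKFB3 rests on the probe set, since its 4 probe sets ranged from -0.36 to 0.91, with 1 above 0 and a mean of 0.11.

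Of the 11 glycolytic enzymes, ALDOC alone passed in A549. This aldolase isoform was at 10.70 and 10.51 in 3D and at 8.03 and 7.16 in 2D, a rise of 3.01 ± 0.49 or 8.06-fold (adjusted p = 0.0259, limma). With the mean of its 5 probe sets the rise of ALDOC was 1.93. The neuronal enolase isoform ENO2 (1.76 ± 0.67, 0.131), HK2, which phosphorylates glucose at entry (1.43 ± 0.69, 0.200), and the isomerase GPI (1.21 ± 0.60, 0.210) came next. The remaining 7 lay between 0.31 (ENO1) and 0.86 (ALDOA), among them the lactate dehydrogenase subunit LDHA (14.77 and 14.54 in 3D, 14.12 and 14.06 in 2D, 0.56 ± 0.71). For the phosphoglycerate mutase PGAM1 the direction rests on the probe set, since its 4 probe sets ranged from -0.84 to 0.73.

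These counts depend on which arrays supply the error. With the 4 A549 arrays alone, where the spread is the change of the gefitinib difference between cultures in A549, 35 members rose and 2 fell (EGLN1 and ERO1A, the latter an oxidase of the endoplasmic reticulum), against 41.8% and 22.5% of all genes (64.2% in all). In that fit NDRG1 had 3.00 ± 0.09 (adjusted p = 2.77e-08, limma), VEGFA 2.23 ± 0.11 (2.27e-07) and LDHA 0.56 ± 0.12 (0.00199). INSIG2, a sterol regulator, and LOX were the members that did not pass there. When any single A549 array was left out (control or gefitinib, 3D or 2D), 0 members and 0% of all genes passed, with 6 or 11 members and 11.2% to 12.5% of all genes at an unadjusted p under 0.05. When any single HCC827 array was left out, 37 members and 64.1% of all genes passed.

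**Figure D1:**
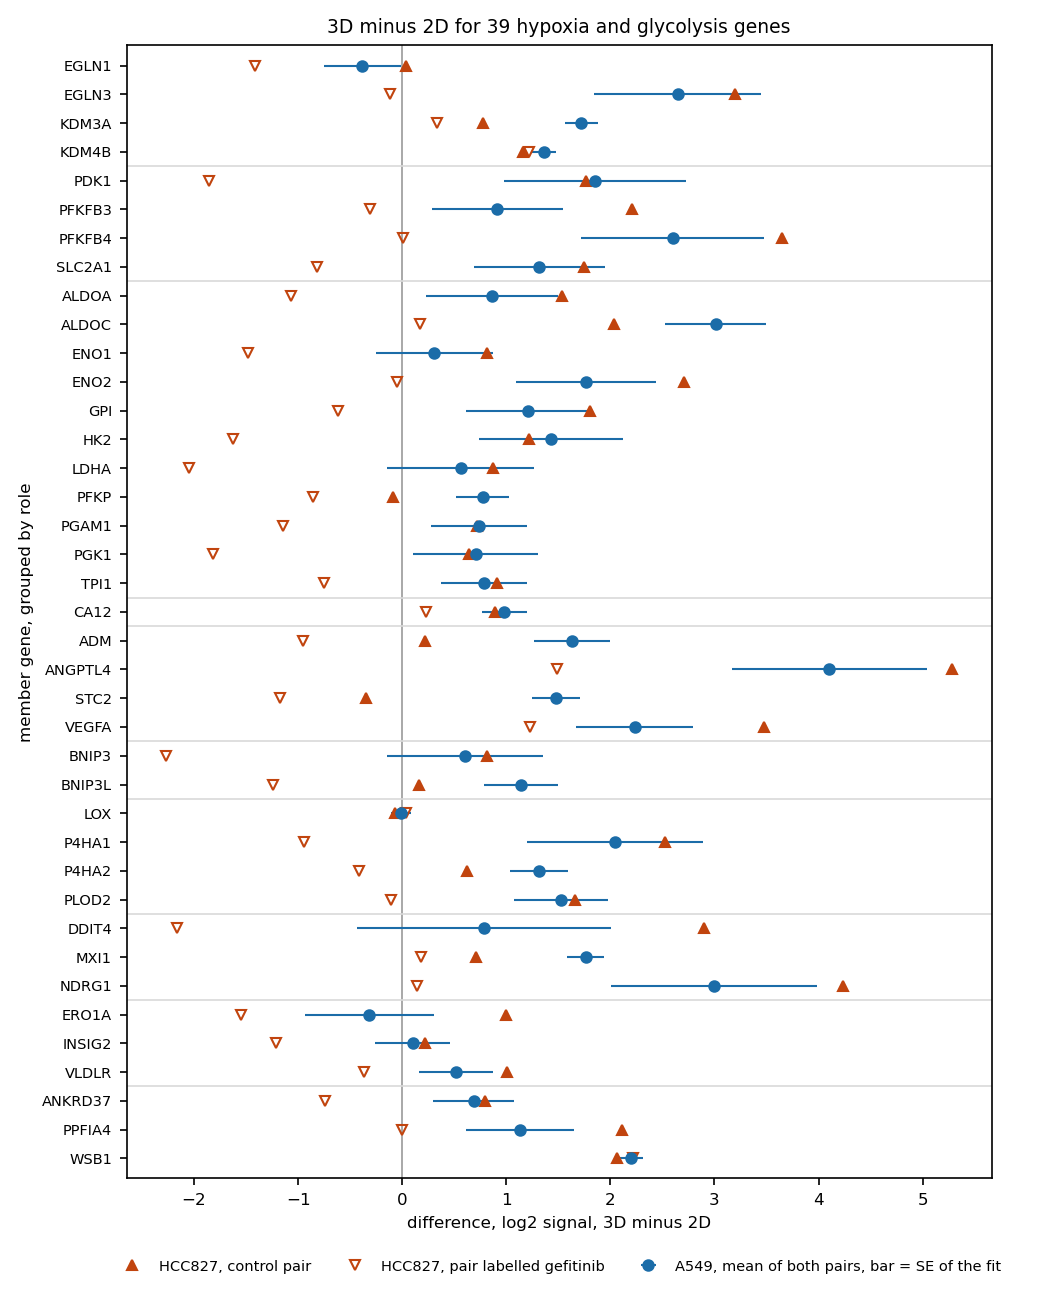
Log2 difference of 3D minus 2D (x axis) for each of the 39 members (y axis, grouped by role), as the A549 mean of both pairs with the standard error of the 8-array fit (circles, bars), and for each HCC827 pair by its labels (triangles). The A549 means are above 0 for 36 members, while the HCC827 control pair is above 0 for 36 and the pair labelled gefitinib for 11. Of all 11926 genes tested, 7112 are above 0 in that control pair and 6426 in the pair labelled gefitinib.

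In HCC827 the question was the same, and the answer differed between the pairs of arrays. Over both pairs the members' median was 0.32 (0.08 for all genes), or 0.10 (-0.03) with the mean of all probe sets. By the probe set used, 3 members rose by limma and 0 fell, where 33.4% of all genes passed (19.7% higher, 13.7% lower). WSB1, at 13.05 and 13.28 in the 3D control and gefitinib arrays and 10.98 and 11.06 in 2D, rose by 2.14 ± 0.12 (adjusted p = 0.0106). Its 7 probe sets ranged from -1.10 to 2.14, with 5 of 7 above 0 and a mean of 0.63. KDM4B was at 9.12 and 8.87 in 3D and 7.96 and 7.65 in 2D, a rise of 1.19 ± 0.11 (0.0108). VEGFA was at 13.68 and 12.96 in 3D and 10.21 and 11.73 in 2D, a rise of 2.35 ± 0.56 (0.0400) that was not kept with the mean of its probe sets (1.43, 0.110). All 3 had both 3D arrays above both 2D arrays, an order seen for 9 of 39 members and for 40% of all genes.

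Most members differed in sign between the pairs: 26 of 39 were above 0 in the control pair and below 0 in the pair labelled gefitinib, as were 16% of all genes. Another 10 were above 0 in both (KDM3A, KDM4B, PFKFB4, ALDOC, CA12, ANGPTL4, VEGFA, MXI1, NDRG1 and WSB1). The share of all genes above 0 in both was larger, at 43.6%. Of the 10 members, CA12 lay below the array median on every HCC827 array. STC2 and PFKP were below 0 in both, as were 30.1% of all genes. In the control pair 36 of 39 members were higher in 3D, as were 7112 of all 11926 genes, with a median of 1.00 (0.13 for all genes). In the pair labelled gefitinib 28 members were lower in 3D, as were 5500 of all 11926 genes, with a median of -0.74 (0.06 for all genes). ANGPTL4 was at 12.40 (control) and 10.73 (gefitinib) in 3D and at 7.11 and 9.25 in 2D, so that it was above 2D in every pairing, with a mean difference of 3.39 ± 0.94 (adjusted p = 0.0557, limma). NDRG1 was at 12.71 and 10.26 in 3D and at 8.47 and 10.11 in 2D, which put the 3D gefitinib array close to the 2D array of the same label. PFKFB4 did likewise, at 11.34 and 9.12 in 3D and 7.70 and 9.11 in 2D.

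The glycolytic enzymes of HCC827 had a mean 3D minus 2D median of -0.21, and 0 of 11 passed. Their control pair had a median of 0.91 (10 of 11 above 0) and their gefitinib pair one of -1.07 (10 of 11 below 0). LDHA stood at 14.17 and 11.92 in 3D and at 13.29 and 13.97 in 2D, and the phosphoglycerate kinase PGK1 at 13.61 and 11.52 in 3D and at 12.97 and 13.34 in 2D. For both, the 3D control array was the highest and the 3D gefitinib array the lowest of the 4. The 3D control array was the highest HCC827 array for 10 of 11 glycolytic enzymes and 21 of 28 others, an order that 33.5% of all genes showed. The 3D gefitinib array lay below both 2D arrays for 8 of 11 glycolytic enzymes and 10 of 28 others (40.6% of all genes). It lay between them for 11 of 39 members (14.9% of all genes), DDIT4, EGLN3 and ENO2 among them. It lay above both for 10 (44.6% of all genes), which were KDM3A, KDM4B, PFKFB4, ALDOC, CA12, VEGFA, ANGPTL4, LOX, NDRG1 and WSB1.

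A comparison of the 3D control array with both HCC827 2D arrays does not need the 2D labels. It lay above both for 32 of 39 members (52.4% of all genes). Against the 2D array labelled gefitinib, the one with higher ERK target signals, the 3D control median was 0.82 for all members, 0.34 for the glycolytic enzymes and 0.88 for the others, beside 0.17 for all genes. Against the 2D array labelled control the 3D gefitinib array had medians of -0.45 for glycolytic enzymes and 0.05 for the others, beside 0.00 for all genes. Without the HCC827 3D gefitinib array or without the 2D gefitinib array, 32 members rose and 1 fell by limma (35.6% and 22.7% of all genes). Without the 3D control array or without the 2D control array, 5 rose and 23 fell (33.9% and 30.8%). Without any single A549 array 0 members and 0% of all genes passed by limma (4 members and 30.5% of all genes at an unadjusted p under 0.05). With the HCC827 arrays alone 0 members and 0% of all genes passed (5 and 30.9%).

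Whether culture acted differently in the lines was tested as an interaction. By limma 0 of 39 members and 0% of all genes passed, with 8 members and 14.2% of all genes at an unadjusted p under 0.05. The median HCC827 minus A549 difference was -0.75 for the members and -0.08 for all genes. The largest was that of STC2, -2.24 ± 0.33 (adjusted p = 0.156), followed by ADM at -2.00 ± 0.52 (0.239). STC2 in HCC827 was at 10.70 and 9.33 in 3D and at 11.06 and 10.50 in 2D, so that unlike in A549 its 3D and 2D arrays overlapped. This test averages unlike HCC827 pairs: without the 3D or the 2D control array of HCC827 it called 36 members, all lower (38.0% of all genes in either direction), and without the 3D or the 2D gefitinib array 20, with 12 higher and 8 lower (30.4%).

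**Figure D2:**
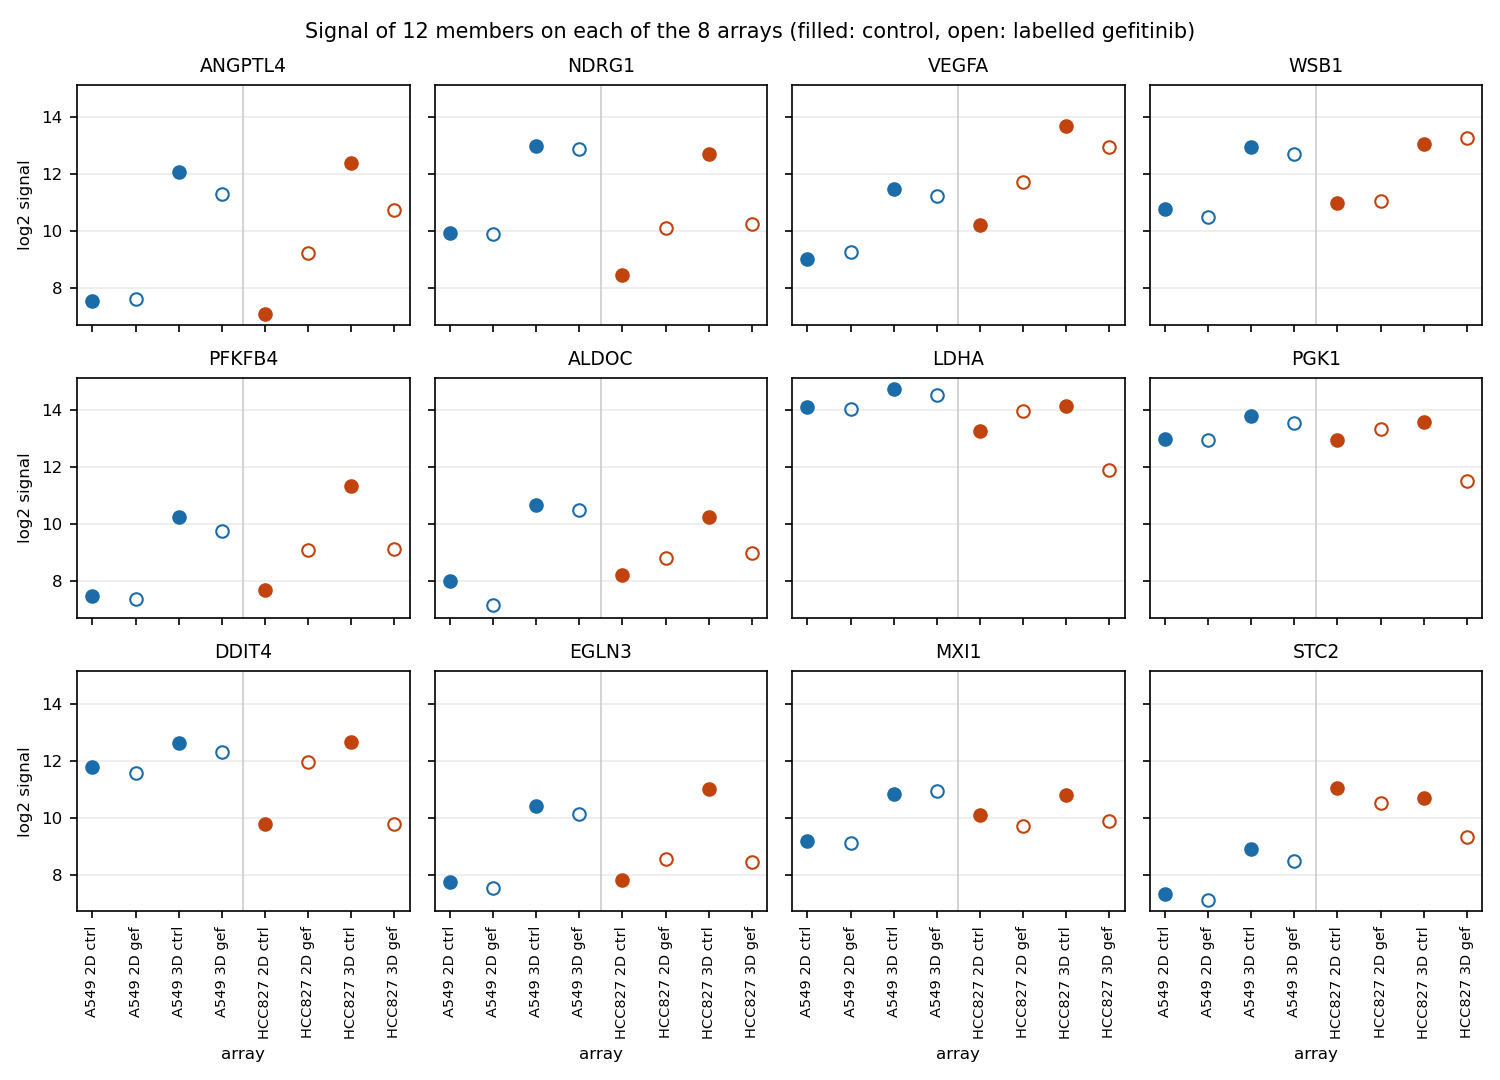
Log2 signal (y axis, the same range in every panel) of 12 members on each of the 8 arrays (x axis), with control arrays filled and arrays labelled gefitinib open. In A549 the treated and control arrays lie close together. Among the HCC827 arrays, LDHA, PGK1 and STC2 are lowest on the 3D gefitinib array. The other members shown, apart from WSB1, are lower there than on the 3D control array.

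The gefitinib comparison asked which members responded to EGFR inhibition. In HCC827 3D nearly the whole set was lower with the drug. Of 39 members 36 fell and 0 rose by limma, where 27.2% of all genes passed (20.4% lower, 6.78% higher), and the members' median was -1.58 against -0.11 for all genes. This is 1 array against 1 array, and the errors take the spread of A549 and assume that it holds for HCC827. The falls include CA12 (7.24 to 6.65), which lay below the array median on every HCC827 array and passed the filter on low signals through A549. Over all genes, the gefitinib differences had an SD of 0.416 in HCC827 3D and of 0.165 in A549 3D.

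All 11 glycolytic enzymes fell, with a median of -1.67. LDHA fell from 14.17 to 11.92, a difference of -2.25 ± 0.16 or 4.76-fold (adjusted p = 1.32e-05, limma). PGK1 fell from 13.61 to 11.52 (-2.09 ± 0.15, 1.32e-05) and the aldolase ALDOA from 14.16 to 12.27 (-1.89 ± 0.16, 2.97e-05). The treated array was the lowest of all 8 arrays for each of these 3 genes. ENO1 (-1.73 ± 0.15), ENO2 (-1.68 ± 0.13) and HK2 (-1.67 ± 0.12) followed, and the smallest fall was that of PFKP, a phosphofructokinase subunit, from 10.22 to 9.25 (-0.96 ± 0.17, 0.00212). With the mean of all probe sets HK2 fell by less (-0.98), and the smallest fall was that of ALDOC (-0.86).

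Glucose entry and flux genes fell with a median of -1.96, 4 of 4 passing. PFKFB4 fell from 11.34 to 9.12 (-2.22 ± 0.14, adjusted p = 8.93e-06, limma) and PDK1 from 9.32 to 7.19 (-2.13 ± 0.13, 6.42e-06). SLC2A1 fell from 12.53 to 10.85 (-1.68 ± 0.13, 2.00e-05) and PFKFB3 from 11.95 to 10.16 (-1.79 ± 0.17, 6.50e-05). The treated PDK1 signal of 7.19 was close to that of the A549 2D arrays (7.22 and 7.24) and below the array median. With the mean of all probe sets the 4 falls were smaller, at -1.20 (PFKFB4), -1.15 (PDK1), -1.47 (SLC2A1) and -1.01 (PFKFB3). The second probe set of PDK1 was at -0.17.

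By the probe set used, the largest falls among all members were outside glycolysis. DDIT4 went from 12.67 to 9.77 (-2.90 ± 0.13, 7.46-fold, adjusted p = 1.42e-06, limma), EGLN3 from 11.00 to 8.43 (-2.56 ± 0.12, 1.76e-06) and NDRG1 from 12.71 to 10.26 (-2.45 ± 0.12, 3.03e-06). The 3 genes act in different ways, on mTOR signalling, on HIF turnover and in stress-linked differentiation. With the mean of all probe sets, DDIT4, which has 1, still fell most. EGLN3 (-1.80) and NDRG1 (-1.74) then fell less than LDHA (-2.28), PGK1 (-2.18) and ALDOA (-2.02). P4HA1 fell from 10.91 to 8.72 (-2.19 ± 0.16, 1.37e-05), more than P4HA2 (-1.08 ± 0.12) and PLOD2 (-1.62 ± 0.17). The mitophagy receptor BNIP3 fell by 1.88 on the log2 scale and BNIP3L by 1.09, and ERO1A fell from 11.22 to 9.41 (-1.80 ± 0.12, 8.97e-06). The other probe set of BNIP3 did not fall (0.15), and the mean of its 2 probe sets was -0.87.

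Secreted factors fell to different extents. ADM fell from 11.62 to 9.68 (-1.95 ± 0.23, adjusted p = 2.03e-04, limma), ANGPTL4 from 12.40 to 10.73 (-1.66 ± 0.22, 4.43e-04) and STC2 from 10.70 to 9.33 (-1.38 ± 0.13, 5.37e-05). VEGFA fell least of the 4, from 13.68 to 12.96 (-0.71 ± 0.16, 0.00908), and its treated signal stayed above that of all 4 A549 arrays. The members that did not pass were KDM4B (-0.25 ± 0.13, 0.185), LOX (0.12 ± 0.12, 0.519) and WSB1 (0.23 ± 0.13, 0.227). KDM3A, at 10.65 and 10.09, had the smallest fall among those that passed (-0.56 ± 0.12, 0.00635).

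Scaling moved the edge of this result. Cyclic loess moved the median of all genes by 0.16, to 0.05, and the members' median to -1.30. Relative to all genes the members still stood lower, with 33 falls; CA12, KDM3A and VEGFA no longer passed, and WSB1 passed as higher (0.55, adjusted p = 0.00828). RNA integrity also differed within this pair: the GAPDH control probe sets gave a 3' minus 5' difference of 0.97 in the control and 1.57 in the treated array, and the actin ones 2.34 and 2.64. All 12 proliferation genes listed were lower in the treated array too, with a median of -1.44. The part of RNA integrity and of proliferation in the members' fall was not tested.

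**Figure D3:**
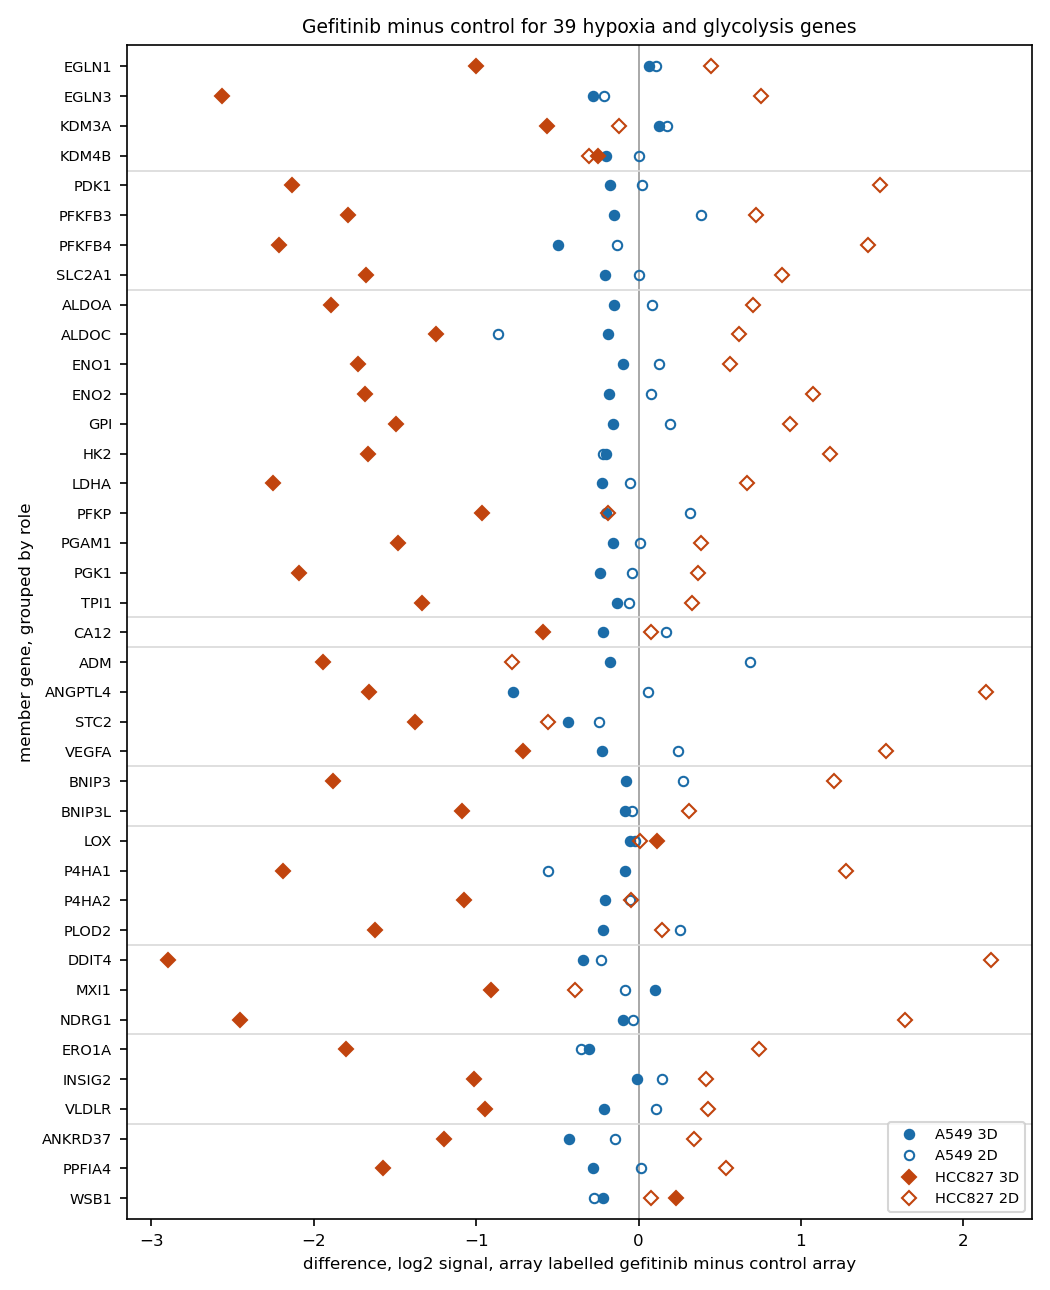
Log2 difference of the array labelled gefitinib minus the control array (x axis) for each of the 39 members (y axis, grouped by role), in A549 (circles) and HCC827 (diamonds), in 3D (filled) and 2D (open). In HCC827 3D 37 members are below 0 (64.9% of all genes). In HCC827 2D, by the labels, 32 are above 0 (41.8% of all genes), while most A549 values lie near 0.

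In HCC827 2D the members ran the other way by the labels. Of 39 members 22 were higher and 3 lower in the array labelled gefitinib by limma, where 22.4% of all genes passed (9.93% higher, 12.4% lower), with a median of 0.54 against -0.05 for all genes. DDIT4 was at 9.77 in the array labelled control and at 11.94 in the one labelled gefitinib (2.17 ± 0.13, adjusted p = 6.87e-06). ANGPTL4 was at 7.11 and 9.25 (2.14 ± 0.22, 8.81e-05), NDRG1 at 8.47 and 10.11 (1.64 ± 0.12, 1.19e-05) and VEGFA at 10.21 and 11.73 (1.53 ± 0.16, 8.90e-05). The direction matched that of the ERK targets and the 12 proliferation genes on these arrays, which were all higher in the array labelled gefitinib (median 1.81).

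PDK1 (1.49 ± 0.13), PFKFB4 (1.42 ± 0.15), P4HA1 (1.28 ± 0.16), BNIP3 (1.20 ± 0.15) and HK2 (1.18 ± 0.12) were also higher, each with an adjusted p at or below 2.94e-04 by limma. Of the glycolytic enzymes 7 of 11 passed, all higher, with a median of 0.62. The enzymes PGK1 (0.37 ± 0.15, adjusted p = 0.103), PGAM1 (0.38 ± 0.14, 0.0851), TPI1, a triose phosphate isomerase (0.33 ± 0.14, 0.127), and PFKP (-0.19 ± 0.17, 0.469) did not pass. The 3 lower members were ADM (11.40 and 10.63, -0.78 ± 0.23, 0.0333), STC2 (11.06 and 10.50, -0.56 ± 0.13, 0.0108) and MXI1 (10.10 and 9.72, -0.39 ± 0.12, 0.0488). Both ADM and STC2 were thus lower in the array labelled gefitinib in each culture of HCC827. The lower calls of ADM and MXI1 were each lost in several alternatives.

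The difference between these responses was itself tested. The gefitinib difference in HCC827 3D minus that in 2D passed for 35 members, all negative, with a median of -2.11 (19.3% of all genes lower, 13.3% higher, median -0.05). By the labels DDIT4 stood at -5.07 ± 0.18 (adjusted p = 1.59e-07, limma) and NDRG1 at -4.09 ± 0.17 (4.14e-07). All 11 glycolytic enzymes were among the 35, from -0.77 (PFKP) to -2.92 (LDHA). KDM3A (-0.44 ± 0.17, 0.0676), KDM4B, LOX and WSB1 did not pass. This difference rests on the 2D labels. With them exchanged, 25 members were lower and 1 higher in 3D (9.52% and 2.06% of all genes, 11.6% in all), with a median of -0.80 against -0.16 for all genes. The lowest were then ADM (-2.73), STC2 (-1.93) and EGLN3 (-1.81), while DDIT4 stood at -0.73 and NDRG1 at -0.81. The 1 higher was VEGFA (0.81), and ANGPTL4 also changed its sign without passing (0.47, adjusted p = 0.343, limma). Of the glycolytic enzymes 7 of 11 still passed, each lower.

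In A549 0 of 39 members passed with gefitinib by limma, as did 0% of all genes (0 members and 0.721% of all genes at an unadjusted p under 0.05), and the members' median was -0.07 (0.04 for all genes). In 3D 36 of 39 members were below 0, but by small amounts (median -0.20), with ANGPTL4 the lowest at -0.77 and KDM3A the highest at 0.12. All 11 glycolytic enzymes lay between -0.24 (PGK1) and -0.10 (ENO1) in A549 3D, where 41.2% of all genes were below 0. In 2D 18 of 39 members and 39.2% of all genes were below 0, and the extremes were ALDOC (-0.86) and ADM (0.68). With the A549 arrays alone 0 members passed (11 at an unadjusted p under 0.05), and 0.0168% of all genes did (0.00839% higher and 0.00839% lower).

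The gefitinib difference of HCC827 3D minus that of A549 does not use the HCC827 2D arrays. The A549 difference is the mean over 3D and 2D, so the cultures are not matched. It passed for 34 members, all negative, with a median of -1.44 (17% of all genes lower, 3.56% higher, median -0.14). The largest were DDIT4 (-2.61 ± 0.16, adjusted p = 2.46e-05, limma), NDRG1 (-2.39 ± 0.15, 2.51e-05) and EGLN3 (-2.32 ± 0.15, 2.51e-05). Of the glycolytic enzymes 10 of 11 passed; ALDOC, with -0.72 ± 0.23 (0.0546), did not.

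Levels were also compared between the lines, over both cultures and treatments. Over 4 arrays of each line, 4 members were higher and 4 lower in HCC827 by limma. These 8 of 39 were a smaller share than the 48.1% of all genes that passed (22% higher, 26.1% lower). CA12 was between 13.20 and 14.38 on the A549 arrays and between 6.34 and 7.24 on those of HCC827, below the array median on all 4. It passed the filter on low signals through the A549 arrays alone, so its fitted difference of -7.12, one of the 4 lower calls, is a description and its size a lower bound. STC2 ranged from 7.09 to 8.91 in A549 and from 9.33 to 11.06 in HCC827 (2.44 ± 0.16, 0.00114). VEGFA was higher in HCC827 at every matched condition (1.90 ± 0.40, 0.0199). GPI (-2.23 ± 0.42, 0.0152), PFKP (-1.27 ± 0.18, 0.00685) and EGLN1 (-1.51 ± 0.26, 0.0115) were lower in HCC827, and their ranges in the 2 lines did not overlap. KDM4B (0.64 ± 0.08) and WSB1 (0.36 ± 0.09) were higher, and their ranges overlapped. With the mean of probe sets KDM4B no longer passed (0.15, adjusted p = 0.0805, limma), and WSB1 turned to -0.19 (0.180). Without any single A549 array 2 or 3 members passed, with up to 15.9% of all genes. Without the HCC827 3D control or 2D gefitinib array 33 passed (72.0% of all genes), and without the 3D gefitinib or 2D control array 29 (70.5%). With the HCC827 3D arrays and all A549 arrays 6 members were higher and 27 lower in HCC827, where 69% of all genes passed (30.3% higher, 38.7% lower).

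Glycolytic enzymes and the other members were set side by side in each pair of arrays. Differences are compared here and not levels, and probe sets can differ in how steeply their signal follows the RNA. In A549 the culture median was 0.78 for the glycolytic enzymes (1 of 11 passed) and 1.34 for the others (9 of 28 passed). In HCC827 it was -0.21 (0 of 11) and 0.45 (3 of 28). With gefitinib in HCC827 3D the medians were close, at -1.67 (11 of 11) and -1.48 (25 of 28). They ranged from -2.25 to -0.96 for the enzymes and from -2.90 to 0.23 for the others. These list medians depend on the probe set. With the mean of all probe sets, the middle enzyme was PGAM1 (-1.58) with gefitinib in HCC827 3D, beside a median of -1.15 for all members. The lists then lay further apart. For culture in A549 the middle enzyme was HK2 (0.71), beside 0.73 for all members, so the lists were then nearly level. For the difference between the HCC827 3D and 2D responses the medians were -2.42 (11 of 11) and -1.65 (24 of 28) by the labels, and -1.10 (7 of 11) and -0.79 (19 of 28) with the 2D labels exchanged. No test of one list against the other was made.

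The glycolytic median signal by array followed the same pattern. It was 13.80 and 13.56 in A549 3D control and gefitinib and 12.93 and 12.96 in A549 2D. In HCC827 it was 13.44 and 11.52 in 3D and 12.63 and 13.10 in 2D. The treated HCC827 3D array was thus the lowest of the 8 for this list. For the other members it stood at 9.48, above both A549 2D arrays (9.30 and 9.11). Within HCC827 it was the lowest for this list too, below 10.88 in 3D control and 9.62 and 9.85 in 2D.

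**Figure D4:**
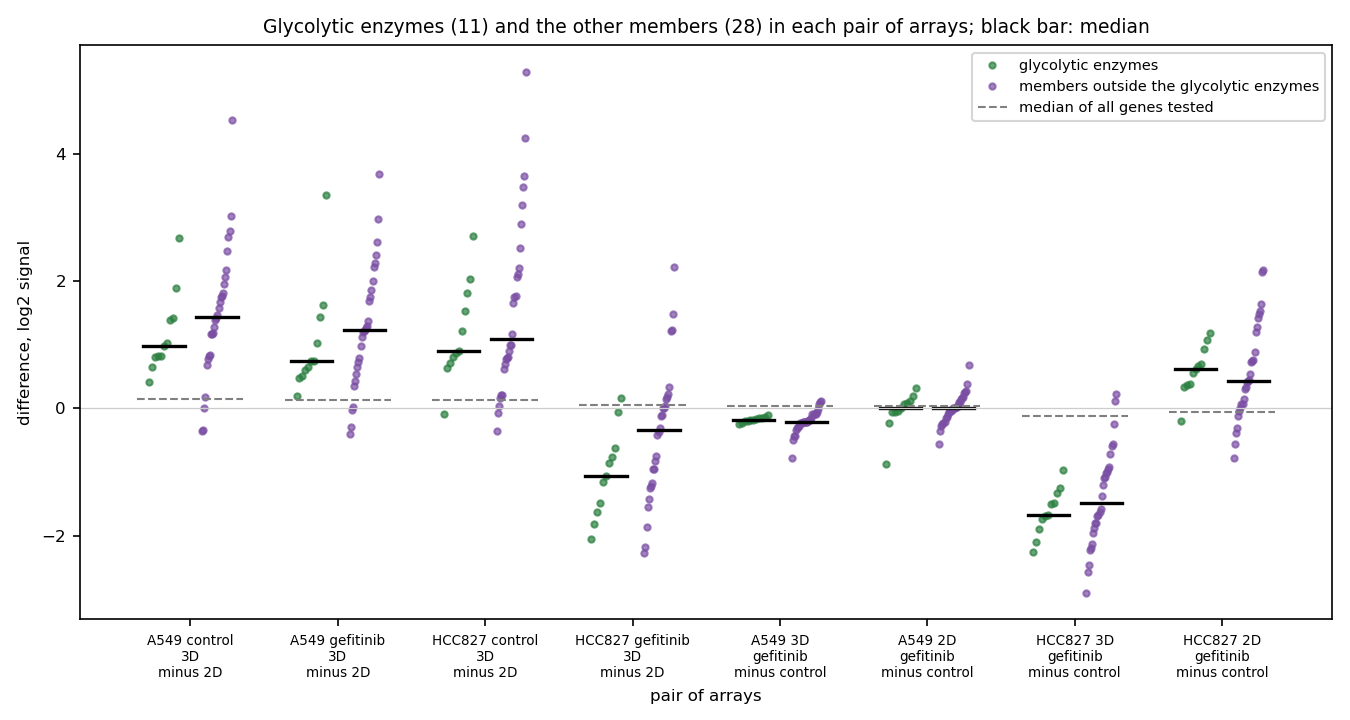
Log2 difference (y axis) of each of the 11 glycolytic enzymes (green) and the 28 other members (purple) in 8 pairs of arrays (x axis), with the list median as a black bar and the median of all genes tested as a dashed line. The medians are -1.07 and -0.34 in the HCC827 pair labelled gefitinib, 3D minus 2D, which rests on the 2D labels. With gefitinib in HCC827 3D they lie close together for the probe sets used, at -1.67 and -1.48.

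Genes of the pathway outside the members were taken from 3 lists. Of 11 HIF pathway components, 3 rose and 1 fell with 3D culture in A549, and 2 rose and 3 fell in HCC827 (limma), where 22.3% and 33.4% of all genes passed. The alpha subunit HIF1A did not rise as RNA: it differed by -0.51 ± 0.13 in A549 (adjusted p = 0.0611) and fell by 0.87 on the log2 scale in HCC827 (0.0169). EPAS1, the other main alpha subunit, fell in A549 (-0.75 ± 0.17, 0.0441) and HCC827 (-0.99 ± 0.17, 0.0199). ARNT, the partner subunit, rose by 0.85 ± 0.15 (0.0314) and 1.12 ± 0.15 (0.0143). HIF alpha subunits are known to be controlled largely as proteins, which the arrays do not measure.

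Of 30 further hypoxia targets tested, 6 rose and 1 fell with culture in A549 (median 0.72, beside 16.3% and 6.01% of all genes). In HCC827 3 rose and 3 fell with culture (median 0.05, beside 19.7% and 13.7%). With gefitinib in HCC827 3D 23 fell and 0 rose (median -1.02, beside 20.4% and 6.78%). The largest falls there were those of HILPDA, a lipid droplet protein (11.89 to 9.29, -2.60 ± 0.14, adjusted p = 3.19e-06, limma), and FAM162A (-2.09 ± 0.12, 4.68e-06). HMOX1, which degrades haem, was the one that fell with culture in A549 (-1.75 ± 0.14, 0.0177). Of 18 other glycolysis and pyruvate genes, 0 rose and 4 fell with culture in A549, 2 rose and 3 fell with culture in HCC827, and 3 rose and 6 fell with gefitinib in HCC827 3D. The 4 in A549 were the mitochondrial pyruvate carrier subunits MPC1 (-1.32 ± 0.19, 0.0223) and MPC2 (-1.81 ± 0.15, 0.0177), the pyruvate dehydrogenase subunit PDHA1 (-0.78 ± 0.13, 0.0259) and TIGAR, a phosphatase that lowers glycolytic flux (-1.27 ± 0.17, 0.0212). The pyruvate kinase PKM (-1.58 ± 0.12, 2.11e-05) and GAPDH (-1.02 ± 0.18, 0.00289) fell with gefitinib in HCC827 3D. BPGM, a mutase that diverts a glycolytic intermediate, rose (1.01 ± 0.12, 2.56e-04).

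Probe sets of a gene did not always move alike. Of 31 members with several probe sets, all probe sets had 1 sign in 23 (culture in A549), 16 (culture in HCC827), 27 (gefitinib in HCC827 3D) and 24 (gefitinib in HCC827 2D). The mean of all probe sets kept the sign of the probe set used for 35, 35, 38 and 37 of 39 members. The exceptions were ERO1A, INSIG2, LOX and PGAM1 for culture in A549, ERO1A, LOX, SLC2A1 and TPI1 for culture in HCC827, LOX for gefitinib in HCC827 3D, and CA12 and WSB1 for HCC827 2D. None of these had passed in the contrast concerned. Of the 39 members 10, including 6 glycolytic enzymes, were read from a probe set whose type the maker marks as possibly cross-hybridising.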

How the data were processed

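The authors deposited log2 signals of 8 arrays, made by robust multi-array averaging (RMA, under R 3.2.1, per the submitters' processing notes). For the array annotation, a build was not given in the sources used here. Among 49495 probe sets, 45278 carried 1 gene symbol in the array annotation, 1333 carried several and were left out, and the rest carried none; 45208 matched the RefSeq table (GRCh38.p14) and 70 did not. The probe set with the highest mean stood for its gene, and 11926 of 18244 genes above the array median on at least 2 arrays were tested. Limma 3.58.1 (R 4.3.3) with a variance trend fitted 6 coefficients (a mean, a culture term and a treatment term in each line) to 8 arrays, with 2 residual degrees of freedom and a prior of 2.36. The gefitinib differences of HCC827 came from fits of 5 coefficients to the 4 A549 arrays and 2 HCC827 arrays of 1 culture, with 1 residual degree of freedom and a prior of 9.12 (3D) or 9.05 (2D).

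No condition was replicated. Errors therefore come from how far the gefitinib difference of a line shifted with culture, p-values do not measure replicate scatter, and the number of arrays limits precision. Tests were two-sided, with Benjamini-Hochberg adjustment over all genes tested and a threshold of 0.05. On simulated data of 11926 genes, the culture fit in A549 called 100 of 100 genes changed by log2 1 and 10 of 11726 unchanged ones, and the fit for gefitinib in HCC827 3D called 93 of 100 and 5 of 11726. The simulated noise was alike in both lines and in all genes, unlike the real arrays. These counts therefore do not show how many real changes of that size the fits would call. The members and lists were chosen with earlier results of these data known. Values on every array are given for members with the 12 largest called differences of a contrast and for the largest culture difference of each role, and for further members that a statement rests on, chosen after their values were seen. Alternatives were the mean and the largest-variance probe set, cyclic loess, no filter, a stricter filter, 2 other variance priors, other sets of arrays and leaving out each array. The tests of the gefitinib difference of HCC827 3D against HCC827 2D (7 coefficients over 8 arrays) and against A549, the exchange of the HCC827 2D labels, and the fits without the HCC827 2D arrays were added after the data were seen.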

Additional observations from a re-analysis of the deposited data

Results flagged for a closer look

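The gefitinib difference of the members was not alike in all settings. In a test of the difference itself, 35 of 39 members differed between HCC827 3D and HCC827 2D, as labelled (limma, adjusted p under 0.05), as did 32.6% of all genes. With those 2D labels exchanged, 26 members and 11.6% of all genes did. In the same way 34 of 39 members differed between HCC827 3D and A549, as did 20.5% of all genes. By the labels all of these were more negative in HCC827 3D, whereas with the 2D labels exchanged 25 were and VEGFA was not. Conditions held 1 array each, so no array could be compared with replicates of its own condition.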

How the results depend on the processing

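Among the counts of members called, those for gefitinib in HCC827 3D (36; 29 to 36 over the alternatives) and 2D (25; 20 to 28) stayed within 1.5 times the reported count under every alternative run, as did 0 for gefitinib in A549. Without an array those HCC827 fits have no residual degrees of freedom and give no test. The count for culture in A549 (10) was 6 with genes above the median on all arrays, where 5 of the 10 were not tested, 37 with A549 arrays only and 37 without the HCC827 2D arrays, and leaving out 1 array gave 0 to 37. The count for culture in HCC827 (3) was 6 with the largest-variance probe set, 7 with cyclic loess and 0 with HCC827 arrays only (limma, 5 members at an unadjusted p under 0.05), and leaving out 1 array gave 0 to 33. Culture by line (0) gave 0 to 36 and line (8) gave 2 to 33 when 1 array was left out. Line also gave 5 with genes above the median on all arrays and 33 with the 3D arrays of HCC827 only. Of single members, WSB1 between lines reversed to -0.19 with the mean of its probe sets. For the gefitinib difference of HCC827 3D minus 2D, exchanging the 2D labels reversed ANGPTL4 to 0.47 and VEGFA to 0.81. Outside left-out arrays, 641 of the called members' values kept their call, 32 lost it and these 3 reversed. No paired analysis was possible because each condition had 1 array and the labels carry no replicate numbers. Depth does not apply to arrays, whose number limits every error here.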
